A study of Mus musculus with 8 samples.

Results

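The genes of purinergic signaling considered here were 10 of the 36536 genes counted in each library. They were 4 P2X receptor genes (*P2rx2*, *P2rx3*, *P2rx4* and *P2rx7*), 3 P2Y receptor genes (*P2ry1*, *P2ry2* and *P2ry6*), the ATP release channel gene *Panx1*, the ectonucleotidase gene *Entpd2* and the chloride channel gene *Ano1*. They were chosen by symbol for their place in the ATP-driven activity of the cochlea before hearing, and each symbol matched 1 Ensembl gene in the NCBIM37 (mm9) annotation. RNA-seq was performed on cells sorted without culture or treatment from cochleas of *Lfng-GFP* BAC transgenic mice (strain B6;FVB-Tg(Lfng-EGFP)HM340Gsat/Mmucd) at postnatal day 1 (P1) and day 6 (P6). All 8 libraries carry the transgene, with 2 replicates in each of 4 groups, P1 GFP+, P1 GFP-, P6 GFP+ and P6 GFP-, and each library pools cells from many cochleas. The *Lfng* sequences drive GFP in border, inner phalangeal, outer pillar and Deiters' cells but not in inner pillar cells, and only the brightest cells were kept as GFP+. The GFP- groups hold the remaining cochlear cells, and the lateral wall was taken off more completely at P1 than at P6, so age and dissection cannot be told apart in the GFP- groups.

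Before the onset of hearing, inner supporting cells next to the inner hair cells release ATP, which binds to receptors on supporting cells and starts bursts of activity that spread to hair cells and auditory neurons. P2Y receptors are coupled to G proteins, and P2Y1 acts through Gq and phospholipase C to release calcium from internal stores. The calcium opens ANO1 (TMEM16A), a calcium-activated chloride channel, and the chloride that leaves the cell is followed by potassium and water. P2X receptors are ion channels that ATP opens directly. Pannexin 1 forms channels that can release ATP, and ectonucleotidases such as ENTPD2 break ATP down outside the cell.

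Levels are given as CPM, counts scaled to a gene total of 1000000 in each library, and fold changes are from edgeR fits after TMM normalization. Fold changes are called at an adjusted p-value below 0.01 in edgeR's quasi-likelihood test over all genes tested. The labels do not say whether the replicates are separate animals, so p-values measure only the spread between these samples. The libraries held 17769024 to 67695039 counts on genes, and the replicates of each group differed by more than sampling noise. Of the 8 supporting cell markers, 7 were called higher in GFP+ cells and 1 lower at P1. At P6, 7 were called higher and 1 was not called. *Lfng*, whose sequences drive the GFP used for sorting, was at 2365 to 3755 CPM against 17.2 to 45.8 CPM in GFP- cells. *Slc1a3* was at 157 CPM in both P1 GFP+ libraries against 379 and 312 CPM in P1 GFP- libraries. At P6 it was at 252 and 268 CPM in GFP+ against 217 and 230 CPM in GFP- libraries. Hair cell markers were also present in GFP+ cells, with *Otof* at 114 to 191 CPM in GFP+ and 12.5 to 22.0 CPM in GFP- cells. Both P6 GFP+ libraries carried more markers of several other cell types than both P1 GFP+ libraries. Schwann cell sums were 1104 and 2343 CPM against 359 to 417 CPM. Stria and melanocyte sums were 46.4 and 137 against 13.3 to 13.6 CPM, and endothelial sums 55.6 and 201 against 22.8 to 25.7 CPM. Mesenchyme and otic capsule sums were 5396 and 10438 against 5431 to 6787 CPM, so P6 GFP+ replicate 1 was not higher. In that library *Kcne1* and *Kcnq1* of the stria were also not above both P1 GFP+ libraries, at 1.07 and 5.40 CPM. With age in GFP+ cells edgeR called 0 of 5 Schwann, 0 of 5 endothelial and 1 of 5 stria and melanocyte markers. DESeq2 called 4, 5 and 3 of them higher in the same order. The 3 markers of Koelliker's organ summed to 345 and 549 CPM in P6 GFP+ and 216 to 248 CPM in P1 GFP+ libraries. With age in GFP+ cells edgeR called 1 of them higher and 1 lower. *Epyc* was at 53.8 and 55.6 CPM in P1 GFP+ and 224 and 431 CPM in P6 GFP+ libraries. *Fgf10* was at 188 and 156 CPM in P1 GFP+ and 121 and 118 CPM in P6 GFP+ libraries, and *Crabp1* was also lower at P6. The part of these cell types in the changes with age in GFP+ cells was not tested. P6 GFP+ replicate 2 held more of the GFP- transcripts than replicate 1. This was measured over 751 genes called at P1 whose GFP- level exceeded the GFP+ level by 16-fold or more. Replicate 2 exceeded replicate 1 by a median of 0.80 on the log2(CPM + 1) scale, while the 2 P1 GFP+ replicates differed by a median of -0.00052. The genes were picked as low in those 2 P1 GFP+ libraries, so the P1 value is not an independent yardstick. In bulk samples such as these, fewer cells of a type and less RNA per cell cannot be told apart.

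The 5′ flanks of 7 of the 10 genes were matched by symbol in RefSeq (build GRCm38.p6), and *P2rx2*, *P2rx3* and *P2ry6* were not. The 250 bases before the start are shown for *Ano1* and *P2ry1*, whose transcripts rose most in GFP+ cells between P1 and P6, for *P2ry2*, which was enriched in GFP+ cells at both ages, and for *Panx1*, which fell. Each is written 5′ to 3′ on the strand of the gene, with matches to 7 motifs in capitals.
Ano1, chr7:144738574-144738823, minus strand: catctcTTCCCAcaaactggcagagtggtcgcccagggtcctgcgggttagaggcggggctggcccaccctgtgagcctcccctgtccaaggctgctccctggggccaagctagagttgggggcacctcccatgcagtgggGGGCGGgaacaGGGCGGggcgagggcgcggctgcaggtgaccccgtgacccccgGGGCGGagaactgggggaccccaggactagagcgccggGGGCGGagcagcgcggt
P2ry1, chr3:61002535-61002784, plus strand: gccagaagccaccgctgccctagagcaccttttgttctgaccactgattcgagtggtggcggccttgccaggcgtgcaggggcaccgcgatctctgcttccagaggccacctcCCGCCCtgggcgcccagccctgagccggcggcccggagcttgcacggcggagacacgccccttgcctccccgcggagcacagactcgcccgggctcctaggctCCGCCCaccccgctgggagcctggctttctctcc
P2ry2, chr7:101012054-101012303, minus strand: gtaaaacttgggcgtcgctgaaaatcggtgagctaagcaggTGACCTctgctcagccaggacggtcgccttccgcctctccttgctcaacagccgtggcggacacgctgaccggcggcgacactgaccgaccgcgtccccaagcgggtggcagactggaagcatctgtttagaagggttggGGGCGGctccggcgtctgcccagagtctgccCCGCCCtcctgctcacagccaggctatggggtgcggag
Panx1, chr9:15045479-15045728, minus strand: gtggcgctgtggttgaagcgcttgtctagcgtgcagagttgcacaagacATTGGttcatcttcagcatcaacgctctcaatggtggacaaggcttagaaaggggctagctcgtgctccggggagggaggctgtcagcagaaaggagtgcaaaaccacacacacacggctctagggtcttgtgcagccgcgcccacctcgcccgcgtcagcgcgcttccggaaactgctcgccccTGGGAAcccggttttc
Each motif was searched on both strands, and no printed matches of different motifs overlap. The GC box, GGGCGG, occurred 4 times in the *Ano1* flank and 2 times each in those of *P2rx7*, *P2ry1*, *P2ry2* and *Entpd2*. In all, 5 of the 7 flanks held it, where 32.7% of 32851 RefSeq flanks of the same length did. The core letters bound by RBPJ, the DNA-binding factor of the Notch pathway, were searched as TGGGAA and occurred 1 time each in the *Ano1* and *Panx1* flanks, while 21.6% of all flanks hold them. *Panx1* held 1 copy of the CCAAT box, which the other 6 flanks lacked and 33.9% of all flanks hold. The nuclear receptor core was searched as AGGTCA, and *P2rx4* and *P2ry2* each held 1 copy of it, against 14.02% of all flanks with a copy. The AP-1 motif, written TGANTCA, occurred in 2 of the 7 flanks, *P2rx7* and *Entpd2*, against 6.75% of all flanks. The TATA box, searched as TATAAA, matched none of the 7 flanks, against 12.4% of all flanks. The E-box, searched as CACGTG, matched none either, against 6.02% of all flanks. The *Ano1* flank was 72.0% G and C and that of *P2ry1* 70.8%, where the median of all flanks was 52.4%. In the NCBIM37 build the same *Ano1* sequence lies at chr7:151924479-151924728, with its RefSeq start 13401 bases inside the *Ano1* gene model. The *P2ry1*, *P2ry2* and *Panx1* flanks end at or within 62 bases of their gene models. A match describes these letters and is not a site shown to be bound. *P2rx7* and *P2ry2* each have 2 RefSeq starts listed, and the first was used.

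Several genes of ATP signaling differed strongly between GFP+ cells and the rest of the cochlea, and they did so in both directions. *P2rx2*, *P2ry2* and *Ano1* were enriched in GFP+ cells at both ages, by 8.31-fold to 26.3-fold, *P2rx4* was lower in GFP+ cells at both ages, and *P2ry6* was higher in GFP+ cells at P1 and lower at P6. From P1 to P6, *P2rx2*, *P2ry1* and *Ano1* rose 5.05-fold to 6.56-fold in GFP+ cells while *P2ry6* and *Panx1* fell.
At P1, 4 of the 10 genes were called higher in GFP+ cells, where 16.6% of the 18682 genes tested were, and 2 were called lower, against 20.7% of all. At P6, 3 were higher against 7.72% of the 18294 genes tested, and 2 were lower against 5.19%. With age in GFP+ cells, 3 rose against 2.86% of the 17213 genes tested, and 2 fell against 1.95%. In GFP- cells 4 rose against 5.04% of the 18920 genes tested, and 0 fell against 2.34%, with 2 of the 10 at an unadjusted p below 0.05 and a negative change in edgeR and 1 called lower by DESeq2. The median log2 fold change of the 10 genes was 0.23 at P1, 0.17 at P6, 0.98 with age in GFP+ cells and 0.91 with age in GFP- cells, and the medians of all genes tested lay between -0.02 and 0.01. The GFP+ libraries enter both the comparison of fractions and the comparison of ages, so these comparisons are not independent.

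**Figure D1:**
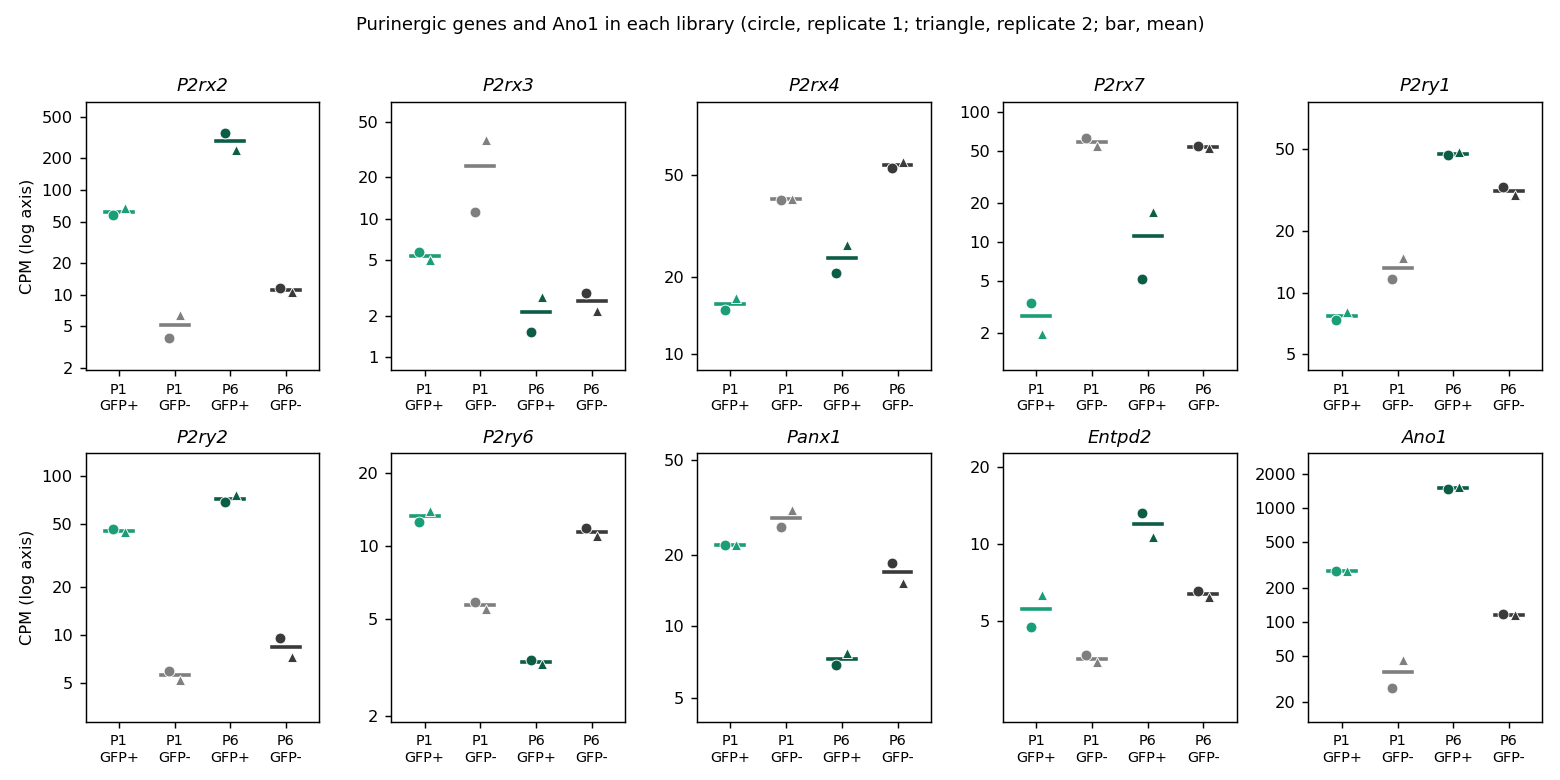
Level of each gene in each of the 8 libraries, in CPM on a log axis that is set for each panel. Circles are replicate 1, triangles replicate 2 and bars the mean of the 2, and a reader sees *Ano1* reach 1463 and 1539.6 CPM in P6 GFP+ cells and *P2ry6* in opposite order at P1 and P6.

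The first of the P2X genes, *P2rx2* (ENSMUSG00000029503, chr5:110768831-110772168, minus strand), encodes the subunit of ATP-gated channels found in hair cells, supporting cells and neurons of the cochlea. Its level was 57.1 and 67.3 CPM in the P1 GFP+ replicates and 3.83 and 6.45 CPM in the P1 GFP- replicates. At P6 it was 347 and 239.6 CPM in GFP+ cells and 11.5 and 10.7 CPM in GFP- cells. The 4 groups did not overlap, in the order P6 GFP+, P1 GFP+, P6 GFP-, P1 GFP-. *P2rx2* was enriched 12.8-fold in GFP+ cells at P1 (log2 fold change 3.68, SE 0.25, edgeR adjusted p = 9.7e-05) and 26.3-fold at P6 (4.72, SE 0.27, edgeR adjusted p = 0.00075). It rose 5.05-fold in GFP+ cells from P1 to P6 (log2 2.34, SE 0.23, edgeR adjusted p = 0.0055). In GFP- cells its change was 1.30 on the log2 scale and was not called by edgeR (adjusted p = 0.018), though it was by DESeq2 (adjusted p = 0.00012). The age by fraction term, which tests whether the GFP+ to GFP- ratio changed with age, was not called (1.02, SE 0.38, edgeR adjusted p = 0.16). Without P6 GFP- replicate 2 the P6 enrichment was 4.65 with an adjusted p of 0.013, and without P1 GFP+ replicate 2 the rise was 2.43 with an adjusted p of 0.016 in edgeR, neither below 0.01.

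Since hair cells also carry *P2rx2*, the 12 hair cell markers were set beside it. Their summed level was 810.1 to 937 CPM in P1 GFP+ and 436 to 498 CPM in P1 GFP- libraries, and 517 to 605 CPM in P6 GFP+ and 351 to 394 CPM in P6 GFP- libraries. At P1, 8 of the 12 were called higher in GFP+ cells and at P6 9 were, and *Slc17a8*, the transporter of inner hair cells, was at 4.39 to 6.997 CPM in all 8 libraries. In GFP+ cells the sum was lower at P6 than at P1, but *Myo6* made up most of it, at 459 CPM in P1 GFP+ and 377 CPM in P1 GFP- cells on average, and the 12 markers differed. From P1 to P6 in GFP+ cells edgeR called 1 of the 12 higher and 2 lower, and 9 were not called. The one called higher was *Slc26a5*, the motor protein gene of outer hair cells, at 0.70 and 1.21 CPM at P1 and 15.1 and 19.8 CPM at P6. *Tmc1*, a gene of the transduction channel, was at 4.997 and 4.82 CPM at P1 and 19.9 and 14.03 CPM at P6 and was not called (edgeR adjusted p = 0.0115). The part of hair cells in the *P2rx2* values was not tested.

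*P2rx3* (ENSMUSG00000027071, chr2:84838740-84877619, minus strand) encodes a P2X subunit of sensory neurons, also present in the developing organ of Corti. It was the gene whose replicates differed most. Its level was 11.2 CPM in P1 GFP- replicate 1 and 37.0 CPM in replicate 2, 5.76 and 5.02 CPM in P1 GFP+ cells, 1.52 and 2.71 CPM in P6 GFP+ cells, and 2.92 and 2.14 CPM in P6 GFP- cells. P1 GFP- cells were highest, and the 2 groups of P6 overlapped. None of its edgeR comparisons passed the threshold, with log2 fold changes of -2.05 at P1 (adjusted p = 0.021), -0.25 at P6 (adjusted p = 0.67), -1.25 with age in GFP+ cells (adjusted p = 0.063) and -3.06 with age in GFP- cells (adjusted p = 0.0105). The last comparison is called by DESeq2, at an adjusted p of 0.0018. The size of the P1 difference depended on the GFP- replicate kept, being -2.68 without replicate 1 and -0.94 without replicate 2. Both of these fits called it in edgeR, but there the lone GFP- library is assumed to vary like the GFP+ libraries. The P1 GFP- replicates also differed in the 8 markers of spiral ganglion neurons, which summed to 313 CPM in replicate 1 and 699 CPM in replicate 2, with *Tubb3* at 25.9 and 101 CPM and *Nefl* at 32.2 and 117 CPM. The part of neurons in the *P2rx3* values was not tested. In P6 GFP+ replicate 1 only 27 counts lay on *P2rx3*.

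*P2rx4* (ENSMUSG00000029470, chr5:123157593-123179747, plus strand) and *P2rx7* (ENSMUSG00000029468, chr5:123093920-123141441, plus strand) lie close together on chromosome 5 and encode P2X receptors known from macrophages and microglia, among other cells. *P2rx4* was at 14.8 and 16.4 CPM in P1 GFP+ cells, 40.0 CPM in both P1 GFP- replicates, 20.7 and 26.5 CPM in P6 GFP+ cells, and 53.2 and 56.3 CPM in P6 GFP- cells. No groups overlapped. It was 2.39-fold lower in GFP+ cells at P1 (log2 -1.26, SE 0.11, edgeR adjusted p = 0.00023) and 2.33-fold lower at P6 (-1.22, SE 0.18, edgeR adjusted p = 0.0064). In GFP- cells it rose 1.56-fold (log2 0.64, SE 0.10, edgeR adjusted p = 0.0078), and in GFP+ cells the change was 0.69 and not called (edgeR adjusted p = 0.051). The P6 call was lost without P6 GFP- replicate 1 or 2 (edgeR adjusted p = 0.048 and 0.0596), as was the rise in GFP- cells (edgeR adjusted p = 0.058 and 0.054). The rise was also lost with library totals (log2 0.45, edgeR adjusted p = 0.026), with all 8 libraries in the fit (edgeR adjusted p = 0.017) and with a replicate block (edgeR adjusted p = 0.021).

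*P2rx7* was at 3.38 and 1.97 CPM in P1 GFP+ cells against 62.4 and 54.8 CPM in P1 GFP- cells, and at 5.18 and 16.9 CPM in P6 GFP+ cells against 54.8 and 52.3 CPM in P6 GFP- cells. GFP+ libraries lay below GFP- libraries at each age, and the GFP- groups of the 2 ages overlapped. It was 19.6-fold lower in GFP+ cells at P1 (log2 -4.29, SE 0.26, edgeR adjusted p = 6.9e-05). At P6 the difference was -2.27 (SE 0.50) and was not called by edgeR (adjusted p = 0.021), though it was by DESeq2 (adjusted p = 5.7e-05). The 2 P6 GFP+ replicates differed 3.27-fold, and the edgeR value was -3.35 without replicate 2 (adjusted p = 1.2e-09) and -1.64 without replicate 1 (adjusted p = 7.4e-07). The 8 macrophage markers summed to 8.03 to 10.3 CPM in P1 GFP+ libraries, 190 to 239 CPM in P1 GFP- libraries, 34.5 and 75.5 CPM in P6 GFP+ replicates 1 and 2, and 455 to 514 CPM in P6 GFP- libraries. All 8 were called lower in GFP+ cells at P1, and the lowest, *Aif1*, *Ptprc* and *Fcgr1*, were at or below 0.57 CPM in P1 GFP+ libraries. In GFP- cells the macrophage sum was higher at P6 than at P1 while *P2rx7* was not (log2 0.06, edgeR adjusted p = 0.75). The difference of *P2rx7* between the ages in GFP+ cells was 2.11 on the log2 scale, which edgeR did not call (adjusted p = 0.068) and DESeq2 did (adjusted p = 0.0022), in the libraries where the macrophage sum was also higher at P6. The part of macrophages in the *P2rx4* and *P2rx7* values was not tested.

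**Figure D2:**
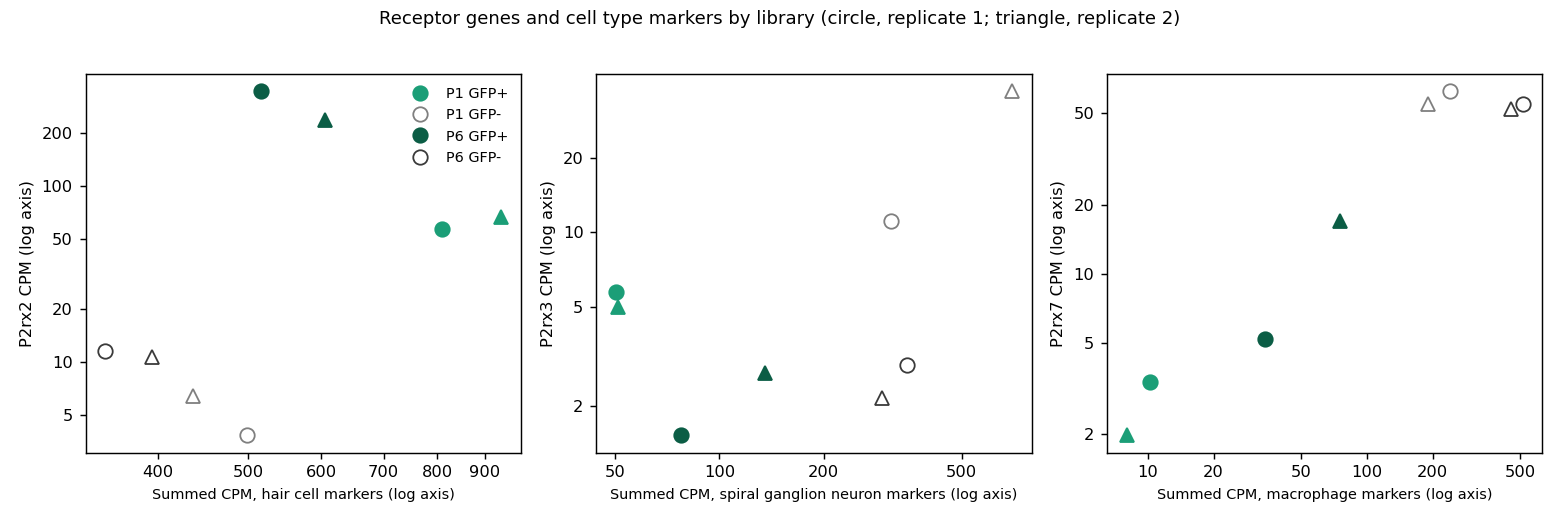
Level of *P2rx2*, *P2rx3* and *P2rx7* against the summed level of hair cell, spiral ganglion neuron and macrophage markers in each library, in CPM on log axes. Filled points are GFP+ and open points GFP- libraries, and P1 GFP- replicate 2 stands at the top right of the *P2rx3* panel with 37.0 CPM and a neuron marker sum of 699 CPM.

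Compared per kilobase of exon, *P2rx2* made up most of the P2X transcripts of GFP+ cells. Of the summed CPM per kilobase of the 7 P2X genes, it took 77.2% and 79.9% in P1 GFP+ replicates and 95.5% and 90.3% in P6 GFP+ replicates, against 6.28% and 8.10% in P1 GFP- and 17.0% and 15.8% in P6 GFP- replicates. In P6 GFP- cells *P2rx4* took 47.0% and 49.7% and *P2rx7* 29.0% and 27.7%. The other P2X genes, *P2rx1*, *P2rx5* and *P2rx6*, took at most 3.29% each in any library. In *P2rx2* the level per kilobase ranked 1811th in P1 GFP+ and 268th in P6 GFP+ cells among the genes with a count.

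*P2ry1* (ENSMUSG00000027765, chr3:60806717-60812901, plus strand) encodes the receptor placed upstream of calcium release and ANO1 in supporting cells. It was at 7.38 and 8.04 CPM in P1 GFP+ cells and 11.7 and 14.7 CPM in P1 GFP- cells. At P6 it was at 46.6 and 48.1 CPM in GFP+ cells and 32.7 and 29.7 CPM in GFP- cells. No groups overlapped, and GFP+ cells were the lower fraction at P1 and the higher at P6. *P2ry1* rose 6.56-fold in GFP+ cells (log2 2.71, SE 0.14, edgeR adjusted p = 0.0021) and 2.70-fold in GFP- cells (log2 1.43, SE 0.16, edgeR adjusted p = 0.0021). The differences between the fractions were -0.68 at P1 (edgeR adjusted p = 0.0201) and 0.59 at P6 (edgeR adjusted p = 0.033), neither called by edgeR. The P1 difference was called by DESeq2 (adjusted p = 0.0072) and by edgeR with all 8 libraries in the fit (adjusted p = 0.0086). The age by fraction term, 1.26 on the log2 scale with an SE of 0.22, missed the threshold in edgeR (adjusted p = 0.017) and passed it in DESeq2 (adjusted p = 0.00014). The rise in GFP- cells was lost without P6 GFP- replicate 1 or 2 (edgeR adjusted p = 0.024 and 0.014).

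*P2ry2* (ENSMUSG00000032860, chr7:108145086-108160505, minus strand) encodes a Gq-coupled receptor for ATP and UTP. It was at 46.1 and 44.2 CPM in P1 GFP+ cells and 5.96 and 5.20 CPM in P1 GFP- cells. At P6 it was at 68.2 and 75.7 CPM in GFP+ cells and 9.53 and 7.27 CPM in GFP- cells. GFP+ libraries were far above GFP- libraries at both ages, and in each fraction the P6 libraries lay above those of P1. *P2ry2* was enriched in GFP+ cells 8.72-fold at P1 (log2 3.12, SE 0.13, edgeR adjusted p = 2.3e-05) and 8.51-fold at P6 (3.09, SE 0.21, edgeR adjusted p = 0.00095). The ratio of the fractions differed between the ages by -0.05 with an SE of 0.24 (edgeR adjusted p = 0.94). The changes with age of 0.76 in GFP+ and 0.79 in GFP- cells were not called by edgeR (adjusted p = 0.0147 and 0.055), and DESeq2 called the one in GFP+ cells (adjusted p = 0.00025). Without P6 GFP- replicate 2 the P6 enrichment had an adjusted p of 0.014 in edgeR.

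*P2ry6* (ENSMUSG00000048779, chr7:108086152-108112905, minus strand), which lies close to *P2ry2* on chromosome 7, encodes a receptor for UDP. It was at 12.5 and 13.9 CPM in P1 GFP+ cells, 5.89 and 5.51 CPM in P1 GFP- cells, 3.38 and 3.25 CPM in P6 GFP+ cells, and 11.8 and 11.0 CPM in P6 GFP- cells. The 4 groups did not overlap, and the fraction with the higher level changed from GFP+ at P1 to GFP- at P6. It was 2.49-fold higher in GFP+ cells at P1 (log2 1.32, SE 0.16, edgeR adjusted p = 0.00094) and 3.45-fold lower at P6 (-1.79, SE 0.24, edgeR adjusted p = 0.0054). With age it fell 3.75-fold in GFP+ cells (log2 -1.91, SE 0.21, edgeR adjusted p = 0.00704) and rose 2.28-fold in GFP- cells (1.19, SE 0.18, edgeR adjusted p = 0.0062). Among the 10 genes it was the one called for the age by fraction term (-3.12, SE 0.27, edgeR adjusted p = 0.0012), where 0.988% of 19233 genes were called in this direction and 0.946%, and 0 of the 10, in the other, with 4 of the 10 at an unadjusted p below 0.05 and a positive difference in edgeR and 1 called so by DESeq2.

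Each edgeR call of *P2ry6* was lost without 1 library, while the log2 fold changes kept their direction. At P1 the difference was 1.37 and 1.27 without P1 GFP+ replicate 1 or 2 (edgeR adjusted p = 0.0108 and 0.014). At P6 it was -1.67 and -1.85 without P6 GFP- replicate 1 or 2 (edgeR adjusted p = 0.061 and 0.051). The fall in GFP+ cells was -1.95 and -1.85 without P1 GFP+ replicate 1 or 2 (edgeR adjusted p = 0.0204 and 0.074). The rise in GFP- cells was 1.11 and 1.28 without P6 GFP- replicate 1 or 2 (edgeR adjusted p = 0.074 and 0.0403), and its adjusted p was 0.0133 with library totals and 0.016 with a replicate block. The age by fraction term was -3.18 and -3.04 without P1 GFP+ replicate 1 or 2 (edgeR adjusted p = 0.013 for both), and -3.04 and -3.21 without P6 GFP- replicate 1 or 2 (edgeR adjusted p = 0.016 and 0.011). Macrophages also carry *P2ry6*, and their marker sums, given with *P2rx7*, were higher at P6 than at P1 in both fractions. The part of macrophages in the *P2ry6* values was not tested.

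Per kilobase of exon, *P2ry2* was the leading P2Y transcript of GFP+ cells at both ages, with 63.5% and 59.8% of the summed level of 7 P2Y genes at P1 and 59.8% and 59.6% at P6. The share of *P2ry1* in GFP+ cells was 7.85% and 8.41% at P1 and 31.5% and 29.3% at P6. The share of *P2ry6* was 26.7% and 29.2% at P1 and 4.58% and 3.96% at P6. In P6 GFP- cells *P2ry12*, a receptor of microglia and macrophages, had the largest share, 28.3% and 31.3%.

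**Figure D3:**
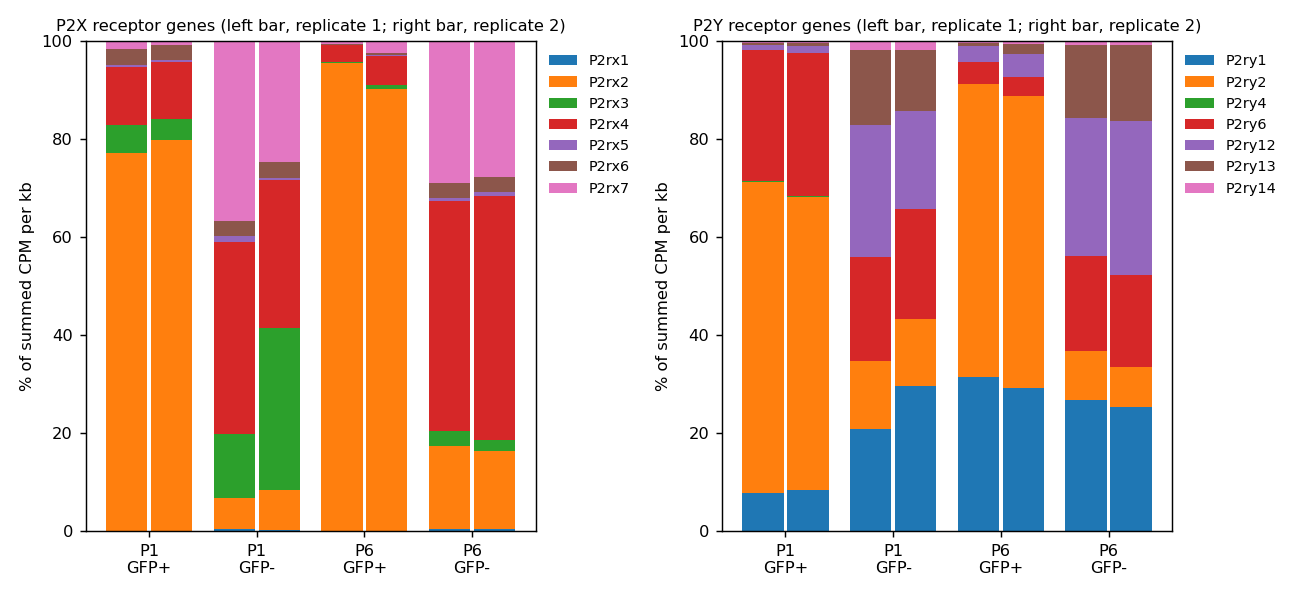
Share of each P2X gene (left) and P2Y gene (right) in the summed CPM per kilobase of exon of its family, in percent, with 1 bar for each library. *P2rx2* takes 77.2% to 95.5% of the P2X sum in GFP+ libraries, and *P2ry1* grows from 7.85% and 8.41% to 31.5% and 29.3% of the P2Y sum between P1 and P6.

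*Panx1* (ENSMUSG00000031934, chr9:14809605-14849922, minus strand) was at 22.0 CPM in both P1 GFP+ replicates and 26.3 and 30.9 CPM in P1 GFP- cells, and at 6.87 and 7.70 CPM in P6 GFP+ cells and 18.5 and 15.3 CPM in P6 GFP- cells. Each fraction was lower at P6 than at P1, and P6 GFP+ cells were lowest. *Panx1* fell 2.83-fold in GFP+ cells (log2 -1.50, SE 0.17, edgeR adjusted p = 0.00719). The other comparisons were not called in edgeR, with -0.56 with age in GFP- cells (adjusted p = 0.056), -0.27 between the fractions at P1 (adjusted p = 0.11) and -1.22 at P6 (adjusted p = 0.0116). The P6 difference is called by DESeq2 (adjusted p = 0.00022), and the fall in GFP+ cells was lost in edgeR without P1 GFP+ replicate 1 or 2 (adjusted p = 0.0397 and 0.077).

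*Entpd2* (ENSMUSG00000015085, chr2:25251394-25256843, plus strand) encodes the ectonucleotidase that turns ATP into ADP, the ligand of P2Y1. It was at 4.76 and 6.35 CPM in P1 GFP+ cells, 3.67 and 3.45 CPM in P1 GFP- cells, 13.2 and 10.7 CPM in P6 GFP+ cells, and 6.53 and 6.20 CPM in P6 GFP- cells. P6 GFP+ cells were highest, and P1 GFP+ and P6 GFP- cells overlapped. The log2 fold changes were 0.74 at P1 and 0.90 at P6 between the fractions, and 1.21 in GFP+ and 1.03 in GFP- cells with age. None was called in edgeR (adjusted p = 0.034, 0.036, 0.032 and 0.0185), and DESeq2 called all of them but that at P1 (adjusted p = 0.0075, 0.0017 and 0.0007). Of its 2130 exon bases, 612 (28.7%) are shared with *Npdc1* on the same strand, and reads there are counted for neither gene or may be split between them, so its values are uncertain.

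*Ano1* (ENSMUSG00000031075, chr7:151774454-151937879, minus strand) was the most abundant transcript of the 10 in GFP+ cells. It was at 279.8 and 282 CPM in P1 GFP+ cells and 26.1 and 46.4 CPM in P1 GFP- cells. At P6 it was at 1463 and 1539.6 CPM in GFP+ cells and 117 and 114 CPM in GFP- cells. No groups overlapped, and the order of the groups was that of *P2rx2* and *P2ry2*. *Ano1* was enriched in GFP+ cells 8.31-fold at P1 (log2 3.06, SE 0.27, edgeR adjusted p = 0.00026) and 12.9-fold at P6 (3.69, SE 0.22, edgeR adjusted p = 0.0008). It rose 5.69-fold in GFP+ cells (log2 2.51, SE 0.15, edgeR adjusted p = 0.0026) and 3.64-fold in GFP- cells (1.86, SE 0.25, edgeR adjusted p = 0.0037), and the age by fraction term was not called (0.62, SE 0.34, edgeR adjusted p = 0.35). In edgeR, the P6 enrichment had an adjusted p of 0.017 without P6 GFP- replicate 2, the rise in GFP+ cells 0.019 without P1 GFP+ replicate 2, and the rise in GFP- cells 0.025 and 0.019 without P6 GFP- replicate 1 or 2.

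Per kilobase of exon, *Ano1* was at 54.2 ± 0.33 in P1 GFP+ and 289.8 ± 10.5 in P6 GFP+ cells (CPM per kilobase, SD, n = 2), which ranked 830th and 119th among the genes with a count. Among the 10 anoctamins it made up 52.7% and 51.1% of the summed level in P1 GFP+ cells and 85.4% and 84.7% in P6 GFP+ cells, against 6.61% and 10.9% in P1 GFP- and 23.2% and 23.5% in P6 GFP- cells. *Ano6*, a scramblase of most cells, made up 44.6% and 38.7% in P1 GFP- cells. In P1 GFP+ cells the order of the 10 genes per kilobase ran *Ano1*, *P2rx2*, *P2ry2*, *Panx1*, *P2ry6*, *P2rx4*, *Entpd2*, *P2ry1*, *P2rx3* and *P2rx7*, and only the replicates of *P2ry1* and *P2rx3* overlapped. In P6 GFP+ cells *Ano1*, *P2rx2* and *P2ry2* were again the first 3 and *P2ry1* came next. There the replicates of *P2rx7* overlapped those of *Panx1*, *P2ry6* and *P2rx3*, and no others overlapped. In P6 GFP- cells *Ano1* was followed by *P2rx4* and *P2rx7*.

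Leaving out 1 library of a group, so that the spread came from the remaining libraries, also brought edgeR calls to members that had none. At P6, without P6 GFP+ replicate 1 or 2, *P2ry1* was called (0.65 and 0.60 on the log2 scale), as were *Panx1* (-1.11 and -1.28) and *Entpd2* (0.77 and 1.07). At P1, without P1 GFP- replicate 1, *P2ry1* was called at -0.86, *Panx1* at -0.41 and *Entpd2* at 0.74. With age in GFP+ cells, all 10 genes were called without either P6 GFP+ library, *P2ry2* at 0.81 and 0.72, *P2rx4* at 0.83 and 0.54, *P2rx7* at 2.66 and 1.02, *P2rx3* at -0.94 and -1.71, and *Entpd2* at 1.03 and 1.398, without replicate 1 and 2 in turn. In GFP- cells, *P2rx2* was called at 0.96 and 1.71 and *P2rx3* at -3.69 and -1.97 without P1 GFP- replicate 1 or 2, and *Panx1* at -0.69 and *Entpd2* at 1.06 without replicate 1. The age by fraction term of *P2rx7* was called at 2.57 without P6 GFP+ replicate 1. The directions were those of the fits on all libraries.

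**Figure D4:**
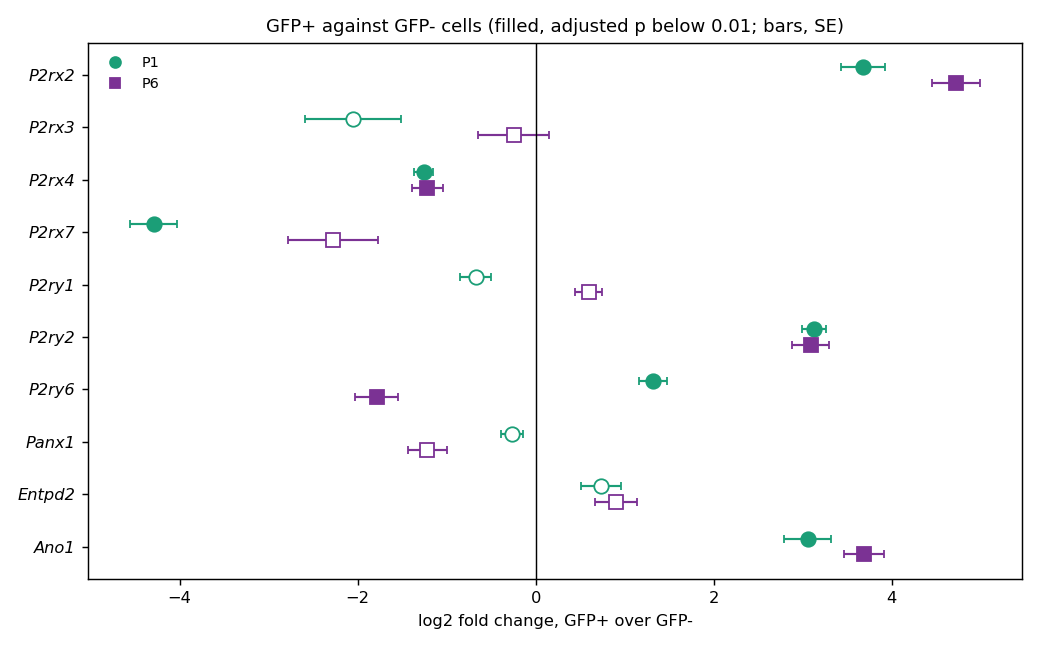
Log2 fold change of GFP+ over GFP- cells at P1 (circles) and P6 (squares) for each gene, with bars of 1 SE and filled symbols where edgeR's adjusted p was below 0.01. *P2rx2*, *P2ry2* and *Ano1* lie at 3.06 or more at both ages, and *P2ry6* lies at 1.32 at P1 and -1.79 at P6.

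**Figure D5:**
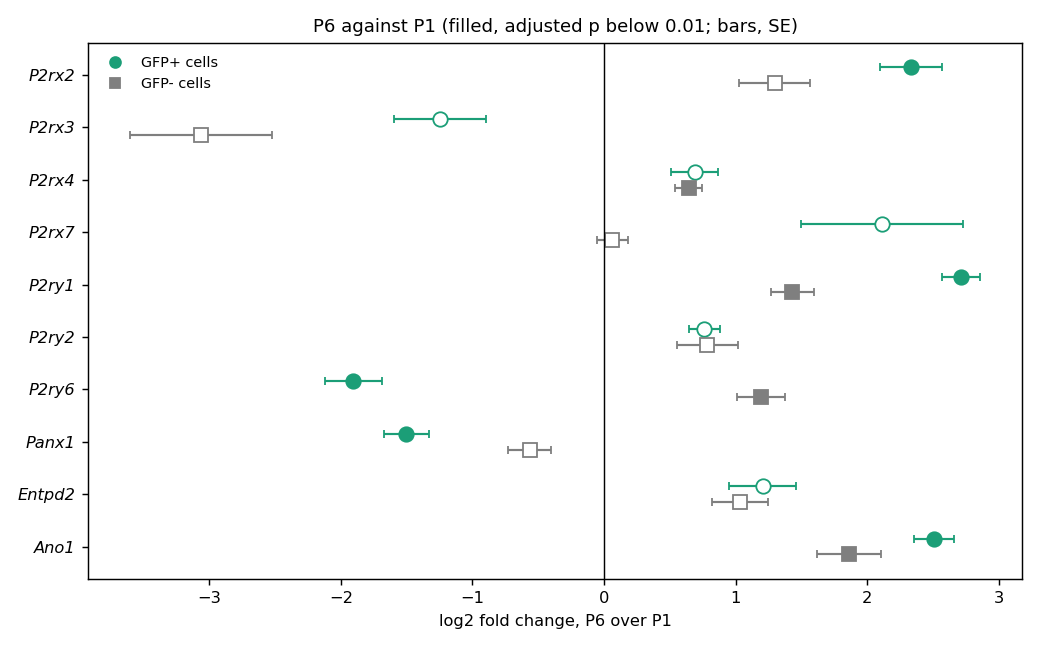
Log2 fold change of P6 over P1 in GFP+ cells (circles) and GFP- cells (squares) for each gene, with bars of 1 SE and filled symbols where edgeR's adjusted p was below 0.01. In GFP+ cells *P2rx2*, *P2ry1* and *Ano1* lie at 2.34, 2.71 and 2.51, and *P2ry6* and *Panx1* at -1.91 and -1.50.

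The genes around these 10 in the pathway were taken from 8 lists with 62 genes. At P1, 10 of the 59 tested were called higher and 26 lower in GFP+ cells, against 16.6% and 20.7% of all genes, with a median log2 fold change of -0.54. At P6, 6 of 58 were higher and 8 lower, against 7.72% and 5.19% of all genes, with a median of -0.54. The count of higher genes at P1 is thus near the share of all genes. The ectonucleotidases and adenosine genes were lower in GFP+ cells at P1 in 9 of 12 and the other 3 were not called, with *Enpp2*, *Slc29a1* and *Alpl* at -5.83, -1.60 and -3.65. At P6, *Nt5e*, which makes adenosine from AMP, was the 1 of 12 that was higher (log2 1.75, edgeR adjusted p = 0.0024). *Nt5e* was at 16.2 and 17.2 CPM in P1 GFP+, 22.7 and 18.0 CPM in P1 GFP-, 101 and 86.4 CPM in P6 GFP+, and 29.4 and 26.1 CPM in P6 GFP- cells.

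Some gap junction genes and genes next to *Ano1* were enriched in GFP+ cells, and other genes of their lists were lower. In the wider ATP release list, which holds the connexins, 3 of 9 genes were called higher and 2 lower at P1. At P6 it had 2 of 8 higher and 2 lower. The chloride and potassium list had 2 of 9 higher and 3 lower at P1, and 1 and 1 at P6. Among all genes, 16.6% and 20.7% were called higher and lower at P1, and 7.72% and 5.19% at P6. Connexin 30 (*Gjb6*) was higher by 1.87 at P1 and 2.47 at P6, connexin 26 (*Gjb2*) by 2.07 at P6, and *Itpr2*, an IP3 receptor that releases calcium, by 2.36 at P6. The potassium chloride cotransporter gene *Slc12a7* was higher by 1.25 at P1 and 2.58 at P6. In the calcium release list, 2 of 12 genes were higher and 5 lower at P1, against 16.6% and 20.7% of all genes. There *Itpr3*, *Itpr1* and *Plcb2* were at -1.80, -1.18 and -4.80. The IP3 receptor genes differed in direction, with *Itpr2* at 394 and 404 CPM in P1 GFP+ and 128 and 91.6 CPM in P1 GFP- libraries. In P1 GFP+ libraries *Itpr1* was at 72.0 and 72.2 CPM and *Itpr3* at 39.4 and 44.4 CPM. At P6, 1 of the 12 was higher, against 7.72% of all genes, and 11 were not called. Among the other anoctamins, 3 of 8 were higher and 3 lower at P1, against the same 16.6% and 20.7% of all genes. *Ano2* was at 3.09 and *Ano6* and *Ano4* were at -1.90 and -2.49 at P1, and *Ano9* alone was called at P6 (2.43). The receptor genes *P2ry12* and *P2ry13* were lower in GFP+ cells by -3.36 and -3.69 at P1 and -2.52 and -3.02 at P6, in the libraries where the macrophage markers were low. The adenosine receptor genes *Adora2a* and *Adora2b* were lower at P1 by -2.70 and -2.88, and the 3 tested at P6 were not called.

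With age in GFP+ cells, 4 of the 56 genes tested rose, against 2.86% of all genes, and 52 were not called. The 4 were *Nt5e* (log2 2.59, edgeR adjusted p = 0.0024), *Gjb6* (1.86, edgeR adjusted p = 0.0056), *Slc12a7* (1.09, edgeR adjusted p = 0.00796) and *Adk*, the adenosine kinase gene (1.49, edgeR adjusted p = 0.0083). In GFP- cells 11 of 59 rose, against 5.04% of all genes, and 1 fell, against 2.34%. *Panx3*, a pannexin of bone and cartilage, rose by 6.02 and *Alpl*, the phosphatase of bone, by 3.11. Of the 6 markers of mesenchyme and otic capsule 0 were called with age in GFP- cells by edgeR, where 3 were higher at P6 at an unadjusted p below 0.05, and DESeq2 called 3 higher. The cartilage collagen gene *Col2a1* was at 15116 and 15014 CPM at P1 and 34336 and 31825 CPM at P6, while *Col3a1* was at 5563 and 4846 CPM at P1 and 4629 and 4278 CPM at P6. The part of these cells in the *Panx3* and *Alpl* values was not tested. *P2ry12* and *P2ry13* rose by 1.71 and 1.50, and *Adora2b* fell by 2.38 on the log2 scale.

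The genes whose pattern over the 8 libraries was most like that of a member were taken from 14048 genes by the Pearson correlation of log2(CPM + 1). For *Ano1* they were *Gjb6* (r = 0.994), *Me1* (0.992) and the tetraspanin gene *Cd9* (0.991). For *P2rx2* they were *Tmem189* (0.998), *Pof1b* (0.997) and *Pon2* (0.996), and for *P2ry2* *Mansc1* (0.998), *Ccrl1* (0.996) and *Fhad1* (0.996). The nearest to *P2ry1* were *Phyh* (0.992), *Il17re* (0.989) and *Fam82a1* (0.989), and to *Entpd2* *Msrb2* (0.992), *Dnaja4* (0.989) and *Sparc* (0.985). For *P2rx3* they were *Gprin1* (0.991), *Fam5b* (0.989) and *Crmp1* (0.986), each highest in P1 GFP- replicate 2. These libraries fall into 4 groups and share depth and composition, so the values are a description.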

How the data were processed

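RNA-seq was performed on GFP+ and GFP- cells of P1 and P6 *Lfng-GFP* cochleas, with 2 libraries a group, grouped by the age and fraction in the labels. The values the authors deposited are raw counts per Ensembl gene, with no normalization, from reads aligned to mm9 (NCBIM37). The submitters' processing notes name TopHat 1.4.0, HTSeq and DESeq 1.9.2, and the counting mode and strand setting are not given in the sources used here. Reads on no gene (13.8% to 25.6% of those listed), on more than 1 gene (2.05% to 2.53%) or at more than 1 place (7.41% to 9.60%) have lines of their own and entered no test. Depth was 17769024 to 67695039 gene counts a library, so values resting on few counts are imprecise.

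CPM is the count divided by the gene counts of the library, and CPM per kilobase also by the exon length in the NCBIM37 gene models, which covered 34391 of the 36536 genes. Comparisons were fitted in R 4.3.3 with edgeR 4.0.16 (filterByExpr with minimum count 10 and minimum total count 15, TMM, quasi-likelihood test, Benjamini-Hochberg adjustment over all genes tested), each on its own 4 libraries, and the age by fraction term on all 8. A call needed p and adjusted p below 0.01. The steps were run on simulated counts with known changes, drawn with the same spread for every gene of a comparison. That simulation does not cover genes whose replicates differed more than this. Alternatives were DESeq2 1.42.0 (size factors, and its test), library totals, no filter, all 8 libraries, a replicate block, and leaving out each library. A crossed replicate block was chosen after seeing the data. Promoters were read with Python 3.11.15 from a RefSeq table, and figures were drawn with matplotlib 3.10.9.

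All 10 members are named in the text. From each wider list, at most 3 genes per comparison are named, those with the smallest adjusted p among the called. *Itpr2* and *Ano9* are given for P6, and the level of *Itpr2* is added for P1. Likeness was computed over genes with a mean of at least 100 counts. The members and lists were chosen with earlier results of these data known.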

Additional observations from a re-analysis of the deposited data

Results flagged for a closer look

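The ratio of GFP+ to GFP- cells differed between P1 and P6 for 2 of the genes named, by the age by fraction term fitted in edgeR to the 8 libraries. For *P2ry6* the log2 ratio was 3.12 lower at P6 than at P1 (a difference of -3.12, SE 0.27, edgeR adjusted p = 0.0012), and both GFP+ libraries lay above both GFP- libraries at P1 and below them at P6. The direction was kept when any 1 library was left out, with values from -3.21 to -2.99, while the call was lost without either P1 GFP+ or either P6 GFP- library. For *Nt5e*, the ecto-5'-nucleotidase gene, the log2 ratio was higher by 1.92 at P6 (SE 0.24, edgeR adjusted p = 0.0041), with GFP+ libraries above GFP- libraries at P6 and below them at P1.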

How the results depend on the processing

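The number of members called at P1 was 6 and ranged from 5 to 10 when 1 library was left out. At P6 it was 5, 8 with the DESeq2 test, and 0 to 9 when 1 library was left out. With age in GFP+ cells it was 5, 8 with the DESeq2 test, 9 with no filter on low counts, and 1 to 10 when 1 library was left out. With age in GFP- cells it was 4, 2 with library totals, 7 with the DESeq2 test, 8 with no filter, 2 with a replicate block, and 0 to 8 when 1 library was left out. For the difference between the ages it was 1, 2 with the DESeq2 test, 5 with no filter, and 0 to 2 when 1 library was left out. Where it was 0 in edgeR, 7 of the 10 had an unadjusted p below 0.05 without P6 GFP- replicate 2 at P6, 8 without either P6 GFP- library with age in GFP- cells, and 4 to 5 for the difference between the ages without either P1 GFP+ or either P6 GFP- library. A group left with 1 library is assumed to vary like the others.

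The signs that turned belonged to members that were not called. With library totals *P2rx7* was at -0.13 with age in GFP- cells and *P2ry2* at 0.081 for the difference between the ages. When 1 library was left out, *P2rx3* at P6 ran from -0.72 to 0.12, *P2rx7* with age in GFP- cells from -0.045 to 0.148, and the difference between the ages from -0.14 to 0.16 for *P2rx4*, -0.046 to 0.370 for *Entpd2* and -0.27 to 0.19 for *P2ry2*. TMM moved the median of all genes against library totals by 0.10 at P1, 0.19 with age in GFP- cells and -0.12 for the difference between the ages. Over all genes, the count of calls at P6 was 2363, and 4891 with the DESeq2 test, 5309 with no filter and 5157 with all 8 libraries. With age in GFP+ cells it was 828, and 3037, 4090 and 2361 in the same order, in GFP- cells 1397, and 3050, 3993 and 769, and for the difference between the ages 372, and 1439 with the DESeq2 test and 2400 with no filter. Without P6 GFP- replicate 2 it was 0 at P6 in edgeR, with 5144 genes at an unadjusted p below 0.05. When 1 library was left out, the counts ran from 3675 upward at P1, from 0 to 7765 at P6, from 137 to 7531 in GFP+ cells, from 249 to 3029 in GFP- cells and from 28 to 1407 for the difference between the ages.

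The labels do not say whether replicate numbers pair the samples. The correlations below cannot settle it, because spread particular to a fraction can hide an effect that paired samples share. The differences between replicates 1 and 2 correlated by 0.045 between the fractions at P1, 0.062 at P6, -0.18 between the ages in GFP+ cells and -0.32 in GFP- cells, over 14048 genes. With a replicate block 6, 6, 5, 2 and 1 members were called in the 5 comparisons, and over all genes 6363, 2837, 1079, 1040 and 151. A crossed replicate block, chosen after seeing the data, called 5 members and 1254 genes with age in GFP+ cells and 7 members and 3063 genes in GFP- cells.

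With 2 libraries a group, calls near the threshold rest on the spread of few samples, and P6 GFP+ replicate 2 differs from replicate 1 in its share of GFP- transcripts. Depth limits *P2rx3* in P6 GFP+ cells, at 27 and 81 counts, and *P2rx7* in P1 GFP+ cells, at 155 and 49 counts.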
